A study of Arabidopsis thaliana with 8 samples.

Results

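The genes described here gave low signal in wildtype Arabidopsis seedlings and higher signal in seedlings labelled E2Fa-Dpa. They were chosen by measured values: a signal under 30 on all 4 wildtype arrays and over 60 on all 4 E2Fa-Dpa arrays. Of 22746 tested probe sets, groups of short probes designed for a transcript or for several related ones, 51 met these limits (0.224%). The probe sets of chr31 and UNG, which were set aside beforehand, were among them, and the other 49 are the members. The annotation used here pairs 25 members with 1 gene each and does not list the other 24.

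Both groups were whole seedlings of the Col-0 accession, grown on agar in days of 16 h light and collected 6 days after germination, with 4 arrays a group. The labels name no allele, promoter or agent for either group, and do not say whether the seedlings of an array were pooled or grown separately. Lines of the name E2Fa-Dpa are known from the literature as plants that overproduce both proteins throughout the plant from a constitutive viral promoter, but the labels used here do not say this. Neither E2FA nor DPA is named for any probe set in the annotation, and their levels were not checked.

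E2F proteins are transcription factors that pair with a DP partner and bind short sites in promoters. In plants as in animals they are held back by a retinoblastoma-related protein until a cell commits to S phase, when genes for DNA synthesis, histones and repair are switched on. Seedlings of this age hold few dividing cells outside the meristems and young leaves, so a transcript made mainly in such cells can be dilute in RNA of the whole plant. In RNA from whole seedlings, more cells that make a transcript and more transcript per cell cannot be told apart.

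Values are MAS5 signals, linear intensities that the authors scaled on each array. A signal under 30 does not show that a gene was off: 42.1% to 45.5% of tested probe sets lay under 30 on each array, and no detection calls were used here. The members are therefore called low in wildtype, not silent. In wildtype the members' signals ran from 0.429 to 29.95, and 5 of 49 members stayed under 10 on all 4 arrays. In E2Fa-Dpa they ran from 60.7 to 1784.7, and 14 members passed 100 on all 4 arrays. For 16 members the E2Fa-Dpa median was under 100. A signal over 60 is not rare either: 39.9% to 43.0% of tested probe sets passed it on each array. The same limits with the groups exchanged were met by 1 probe set, which is not listed, with signals of 65.3 to 93.27 in wildtype and 18.3 to 22.6 in E2Fa-Dpa.

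The arrays stood apart in a way that the groups do not explain. Poly-A RNAs of Bacillus genes serve as labelling controls that a laboratory may spike in. They were bright on 4 arrays, E2Fa-Dpa replicates 1 and 4 with wildtype replicates 3 and 4, where probe sets for the control dap read 39.9 to 182.7. On the other 4 arrays they read 0.178 to 6.69. Each array correlated best with the other array of its own group and array set, at 0.9743 to 0.9941 on the log2(signal + 16) scale. If a close pair came from 1 RNA, there would be 2 samples a group instead of 4. The actin control's ratio of 3' to 5' signal was 1.68 to 1.99 on the arrays with control RNA and 1.21 to 1.58 on those without. For ubiquitin it was 1.15 to 1.29 and 1.67 to 1.95.

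Summed signals of marker genes were high for green tissue and root in both groups, and low for epidermis and gametes. A gene counts here as measured where the annotation names it, alone, for a probe set. Whether other genes are among the unlisted probe sets was not checked. The 4 measured green tissue genes of a list of 7 summed to signals of 11101 to 13770 in wildtype and 8630 to 10558 in E2Fa-Dpa, and PRK, phosphoribulokinase of the Calvin cycle, fell (log2 difference -0.78, adjusted p = 0.0292). In a fit blocked on array set PSAN and PSBY, photosystem subunits, passed as well, with -0.34 and -0.41 (adjusted p = 0.0236 and 0.0226). That fit called 4876 of all tested probe sets, against 1661 without the block, so a pass in it is more common. The 3 measured root genes of a list of 6 summed to 3579 to 4707 and 2566 to 2844, and PYK10, a beta-glucosidase of roots, fell (-0.59, adjusted p = 0.033). Of 6 epidermis genes 4 were measured, with sums of 58.5 to 70.9 and 73.8 to 103. None passed the test, and SPCH, which starts the stomatal lineage, passed in the blocked fit with 0.50 (adjusted p = 0.0383). Both measured gamete genes of 8 written, the egg cell gene EC1.2 and the sperm histone MGH3, summed to 2.8 to 7.1 and 7.9 to 17.8. Neither passed, and EC1.2 passed in the blocked fit with 0.29 (adjusted p = 0.0122). The EC1.2 signals were very low, 0.5 to 2.9 in wildtype and 4.4 to 8.6 in E2Fa-Dpa, and do not show that the gene was on. Of 10 seed genes the annotation names none alone for a probe set. Whether a different make-up of cells had a part in the members' signals was not tested.

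**Figure D1:**
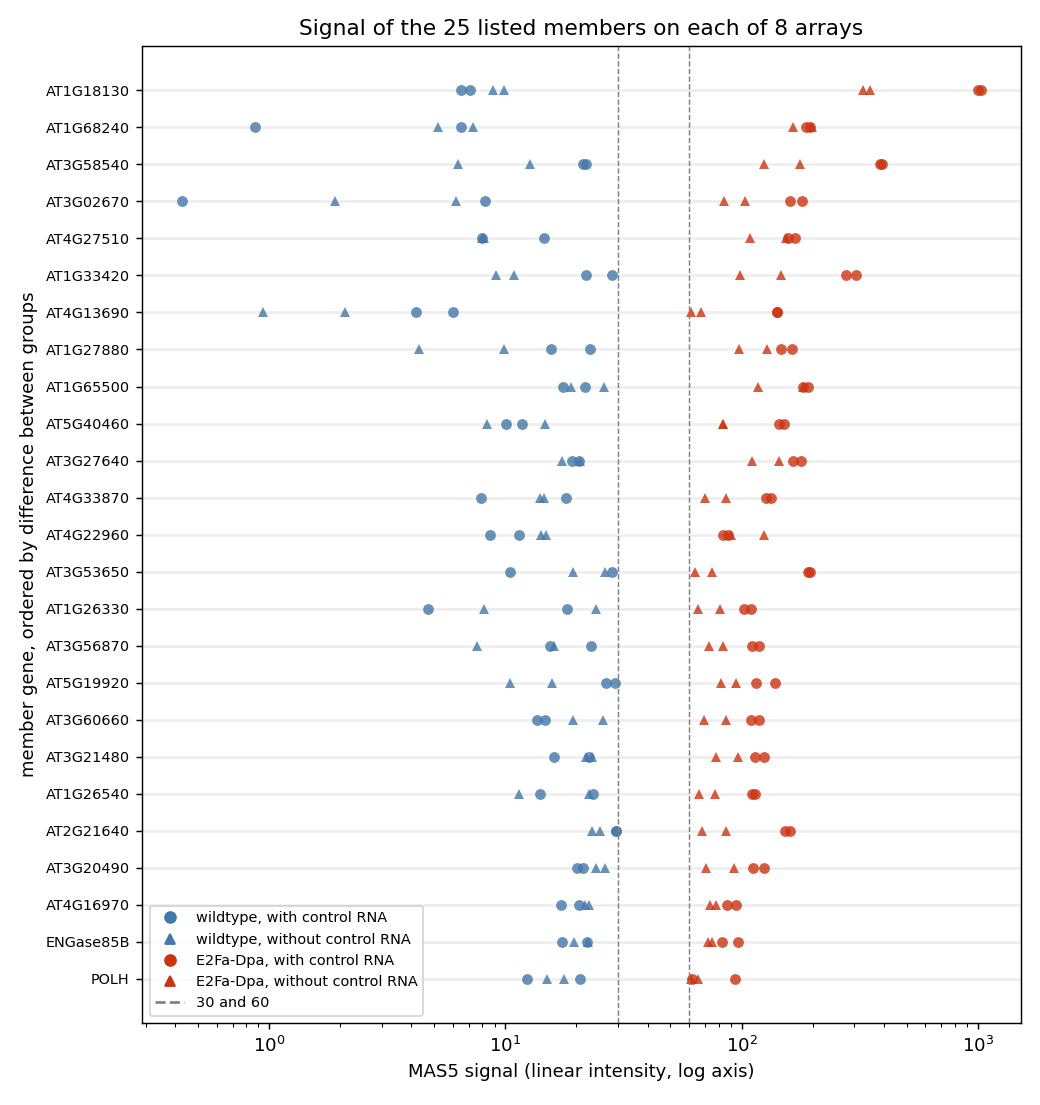
MAS5 signal (log axis) of the 25 listed members on all 8 arrays, wildtype in blue and E2Fa-Dpa in red, circles for arrays with control RNA and triangles for arrays without. Dashed lines mark the limits 30 and 60 that chose the members. For most genes the red circles lie to the right of the red triangles.

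Because the difference between the groups chose the members, it is given as a description without a test. Differences are on the log2(signal + 16) scale, where 1 is a doubling of bright signals and the added 16 shrinks the change of dim ones. Over the 49 members the median difference was 1.99, from 1.205 to 4.65, while the median over all probe sets was 0.00. All E2Fa-Dpa values lie above all wildtype values for each member by the rule, as they did for 9.53% of all probe sets. Just inside the limits was a member with wildtype signals up to 29.95, and another whose lowest E2Fa-Dpa signal was 60.7. Just outside lay AT3G17030, with wildtype signals up to 30.1 and E2Fa-Dpa signals of 72.7 to 101.3, and an unlisted probe set whose lowest E2Fa-Dpa signal was 59.7.

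All 25 listed members are protein-coding genes, 7 on chromosome 1, 1 on chromosome 2, 9 on chromosome 3, 5 on chromosome 4 and 3 on chromosome 5. Only 2 of them, POLH and ENGase85B, carry a gene symbol in the tables used here, and the other 23 carry a locus name. Functions given below for locus names are general background knowledge of those loci and are left out where they are not secure.

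Among members tied to the copying and repair of DNA, POLH encodes a DNA polymerase of the Y family, which copies past damaged bases. Its signals were 15.0, 17.7, 12.4 and 20.8 in wildtype replicates 1 to 4 and 61.7, 60.8, 65.3 and 93.7 in E2Fa-Dpa replicates 1 to 4. It stands close to the lower limit of the set, and E2Fa-Dpa replicate 4 stood above the other 3. AT1G27880 encodes a helicase of the RecQ family, which unwinds DNA during repair and recombination. It read 9.9, 4.3, 15.6 and 22.8 in wildtype and 163.6, 97.7, 128.6 and 146.2 in E2Fa-Dpa. Both wildtype arrays with control RNA were above both without, and the same held for E2Fa-Dpa. AT3G21480, a protein with BRCT domains of the kind found in DNA repair proteins, went from 20.9 ± 3.35 to 103.2 ± 20.2 (SD, n = 4 each).

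AT3G27640 encodes a protein of WD40 repeats, a fold that often serves to hold protein complexes together. It had the most even wildtype signals of the listed members when taken in units of signal, 20.7, 17.4, 19.1 and 20.5, and read 165.3, 110.7, 144.7 and 179.0 in E2Fa-Dpa. AT5G19920, also of WD40 repeats, went from 20.6 ± 8.92 to 107.4 ± 24.6 (SD, n = 4 each).

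Members tied to chromatin included AT3G53650, which encodes a histone H2B, a core part of the nucleosome that is made in quantity during S phase. It read 26.4, 19.4, 10.5 and 28.3 in wildtype and 194.7, 63.7, 74.7 and 191.5 in E2Fa-Dpa. Replicates 1 and 4 were thus far above replicates 2 and 3 in E2Fa-Dpa, while wildtype replicates 3 and 4 were the lowest and the highest of their group. Histone genes are near-identical copies of each other, so part of this signal may come from related genes. AT1G33420 encodes a protein with a PHD finger, a domain that reads histone tails. It read 10.9, 9.1, 22.0 and 28.4 in wildtype and 306.4, 98.7, 147.1 and 276.7 in E2Fa-Dpa. AT1G26540, with an Agenet domain, went from 17.9 ± 6.11 to 92.0 ± 24.1 (SD, n = 4 each).

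Members tied to the control of division included AT5G40460, of the SIAMESE-related family of small proteins that inhibit cyclin-dependent kinases. It read 14.7, 8.4, 10.1 and 11.8 in wildtype and 143.6, 83.3, 83.2 and 150.9 in E2Fa-Dpa. The groups stood well apart, and E2Fa-Dpa split evenly into replicates 1 and 4 above and 2 and 3 below. AT4G16970 encodes a protein kinase and went from 20.5 ± 2.35 to 83.3 ± 9.30 (SD, n = 4 each). AT3G60660, of a family of proteins associated with the spindle and kinetochore, went from 18.4 ± 5.67 to 95.9 ± 22.5 (SD, n = 4 each).

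AT1G68240 encodes a transcription factor of the basic helix-loop-helix family. It read 7.3, 5.2, 0.868 and 6.5 in wildtype and 186.5, 165.3, 198.5 and 194.2 in E2Fa-Dpa. The 4 E2Fa-Dpa signals were close together and overlapped between the array sets, unlike those of most members. The log2 difference between the groups was 3.28 ± 0.143 (SE), and 3.40 with and 3.15 without control RNA.

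Other members lie outside the cell cycle. ENGase85B, an enzyme that cuts the sugar chains of glycoproteins, went from 20.3 ± 2.35 to 81.6 ± 10.8 (SD, n = 4 each). AT4G33870, of the peroxidase family, read 14.6, 14.0, 7.9 and 18.0 in wildtype and 133.7, 70.3, 85.7 and 126.4 in E2Fa-Dpa. AT2G21640, known as a transcript that rises under oxidative stress, read 23.3, 25.2, 29.3 and 29.4 in wildtype and 153.4, 68.0, 85.8 and 160.8 in E2Fa-Dpa. Its wildtype signals came close to the limit of 30, and E2Fa-Dpa replicate 2 stood close to the limit of 60.

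The largest difference among listed members was that of AT1G18130, a protein-coding locus with no symbol. It read 9.9, 8.9, 6.5 and 7.1 in wildtype and 997.5, 328.1, 350.7 and 1027.5 in E2Fa-Dpa. The log2 difference was 4.65 ± 0.369 (SE). AT3G58540 read 6.3, 12.7, 21.4 and 22.0 in wildtype and 384.3, 125.0, 177.3 and 394.4 in E2Fa-Dpa. In wildtype and in E2Fa-Dpa alike, the arrays with control RNA were the higher ones. AT3G02670 and AT4G13690 had some of the lowest wildtype signals, 0.429 to 8.2 and 0.944 to 6.0, against 84.5 to 180.4 and 61.3 to 140.6 in E2Fa-Dpa.

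AT4G27510 read 8.0, 8.1, 8.0 and 14.6 in wildtype and 168.8, 109.0, 153.5 and 157.9 in E2Fa-Dpa. AT1G65500 ran from 17.5 to 26.2 in wildtype and from 116.8 to 190.4 in E2Fa-Dpa, with replicate 2 the lowest. AT4G22960 read 14.9, 14.1, 8.6 and 11.4 in wildtype and 83.8, 90.3, 124.9 and 88.0 in E2Fa-Dpa. It was the member of the whole set with both E2Fa-Dpa arrays without control RNA above both with it. The remaining listed members, AT1G26330, AT3G20490 and AT3G56870, had log2 differences of 1.85, 1.55 and 1.84.

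Of the 24 unlisted members, 266385_at had the highest median signal in E2Fa-Dpa. It read 15.9, 26.1, 12.0 and 11.2 in wildtype and 1723.3, 157.5, 387.8 and 1784.7 in E2Fa-Dpa. Replicates 1 and 4 stood far above replicates 2 and 3, which were in turn above all 4 wildtype arrays. The next, 254443_at, read 12.7, 29.2, 25.9 and 24.2 in wildtype and 438.9, 247.4, 289.6 and 409.3 in E2Fa-Dpa.

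The rule set a lower limit on each E2Fa-Dpa array and did not set which arrays were higher. The signals compared here are still those that chose the members, so the differences between array sets are a description, and the counts of calls support nothing further. Most members were higher on the E2Fa-Dpa arrays with control RNA, replicates 1 and 4, than on those without, replicates 2 and 3. The difference was above 0 for 47 of 49 members, with a median of 0.46 on the log2 scale, while over all probe sets it was above 0 for 39.4%, with a median of -0.07. Both arrays with control RNA lay above both without for 41 members (83.7%), against 25.8% of all probe sets. By limma with Benjamini-Hochberg adjustment over all probe sets and a threshold of 0.05, 12 members were higher and 0 lower, which is 24.5% against a background of 5.29% higher and 7.72% lower. At signals over 60 on all 8 arrays, which 7194 probe sets had, 9.45% were called higher, and their median was -0.02. In linear signal the median ratio over the members was 1.45, and for 10 of 49 it was at least 2.

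These 12 calls also rest on pairs of arrays that are close to each other. They measure the spread within pairs, and with each pair from 1 RNA they would not measure the spread between samples. Without E2Fa-Dpa replicate 1 or 4 the count fell to 1 of 49, without replicate 2 to 3 and without replicate 3 to 7, while over all probe sets the share called higher fell to 0.0044%, 0.136% and 0.633%. The lone array of its set was then assumed to vary like the others. The count was 19 without wildtype replicate 3 or 4, where the share of all probe sets called higher rose too, to 9.73% and 9.71%. Of 49 members, 45 to 47 were above 0 whichever E2Fa-Dpa array was left out. Leaving out a wildtype array cannot change the difference between the E2Fa-Dpa array sets. The choice of members moved with the array set too: the same limits gave 151 probe sets on the arrays with control RNA alone and 75 on those without. With each array centred on its median, the difference between the array sets was above 0 for 48 of 49 members, and with quantile scaling for 47 of 49. The ratios of 3' to 5' signal given above also differed between these array sets, and their part in the result was not tested.

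**Figure D2:**
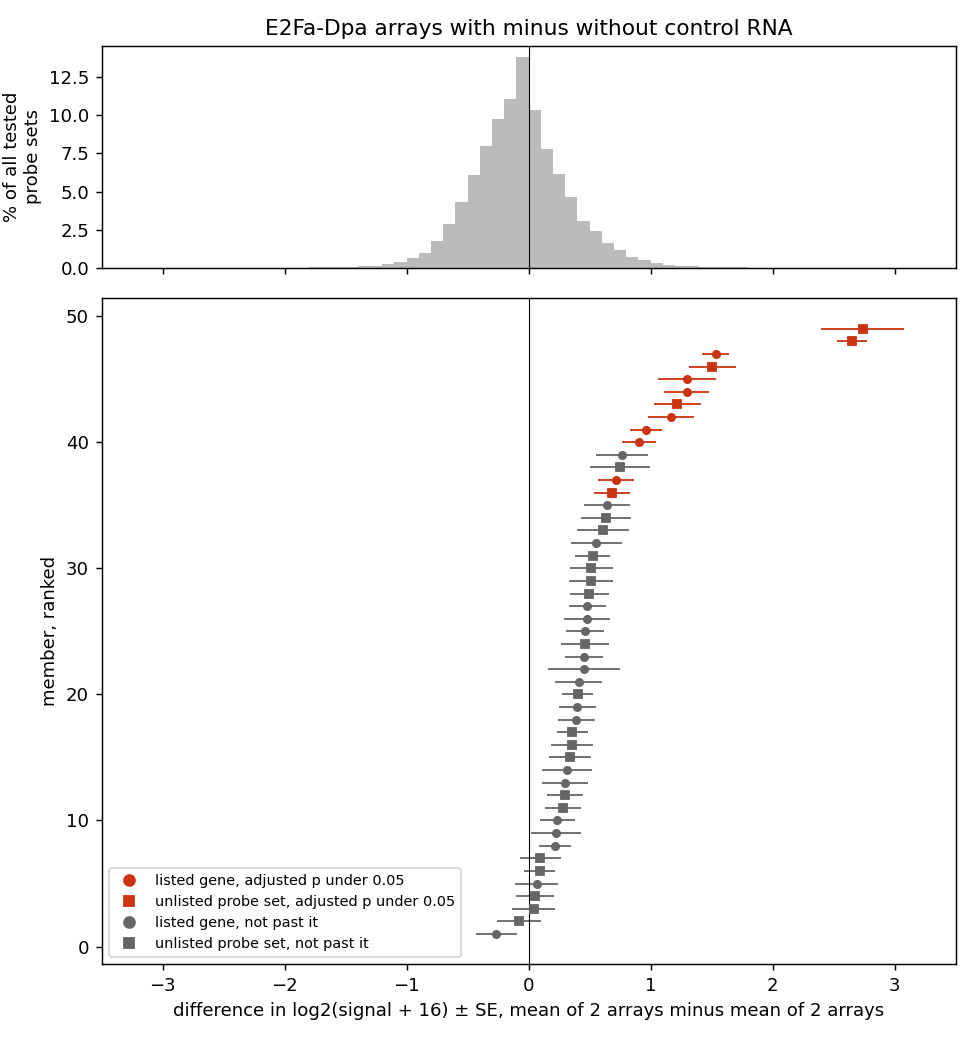
Top, the share of all tested probe sets (%) by the difference between E2Fa-Dpa arrays with and without control RNA, in log2(signal + 16). Bottom, the same difference for the 49 members, ranked, with the SE as bars, circles for listed genes and squares for unlisted probe sets. The members lie mostly right of 0, the 12 past the threshold in red, while the peak of all probe sets lies slightly left of it.

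Of the 12 members called, 7 were listed genes. AT1G18130 had a log2 difference of 1.53 ± 0.110 between the array sets and the histone gene AT3G53650 one of 1.299 ± 0.235 (SE). AT3G58540 had 1.296 and the PHD finger gene AT1G33420 had 1.17. AT4G13690, the oxidative stress transcript AT2G21640 and the kinase inhibitor AT5G40460 had 0.96, 0.90 and 0.72. The POLH, ENGase85B and AT4G16970 genes, with 0.23, 0.24 and 0.22, were not called. AT1G68240 and AT4G22960 had 0.06 and -0.26 and were not called.

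In wildtype, where the members are dim by the rule, 2 of 49 were called higher with control RNA, AT5G19920 with 0.60 and an unlisted probe set with 0.73. None was called lower, at a background of 5.7% higher and 8.42% lower. The median over members was 0.00, and 25 of 49 lay above 0.

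The difference between the groups was larger within the arrays with control RNA for 43 of 49 members, with medians of 2.29 with it and 1.80 without. With wildtype signals held under 30 by the rule, this restates the difference among the E2Fa-Dpa arrays and is no separate result, and the same holds for the interaction. By the interaction of group and array set, 2 of 49 members passed, at a background of 0.0835% of probe sets. They were AT1G18130, with 5.49 within the arrays with control RNA and 3.81 without, and the unlisted 265837_at, with 4.87 and 2.13, which is named after its values were seen. The latter read 2.5, 3.4, 1.8 and 2.0 in wildtype and 512.8, 67.7, 66.5 and 501.3 in E2Fa-Dpa. Neither passed without E2Fa-Dpa replicate 1, 2 or 4, where 0 members were called, 1 member passed without wildtype replicate 1 or 2, and 4 and 6 members passed without wildtype replicates 3 and 4.

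**Figure D3:**
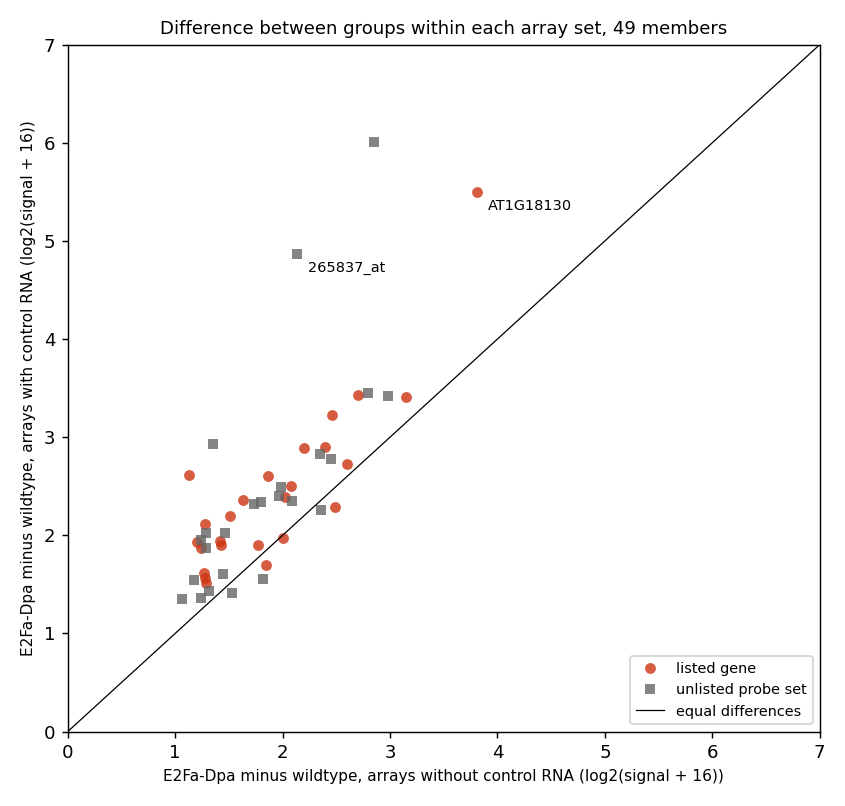
Difference between E2Fa-Dpa and wildtype in log2(signal + 16) within the 4 arrays without control RNA (horizontal) and within the 4 with it (vertical), 1 point a member, with a line where both are equal. Of 49 points, 43 lie above the line, and the 2 with an interaction past the threshold are named.

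The genes next to the members on the chromosome were not used to choose them. Of the 50 places next to the 25 listed members, 18 hold a gene with a listed probe set, beside 15 members. None of these 18 was called higher or lower in E2Fa-Dpa by limma with Benjamini-Hochberg adjustment, at a background of 4.36% higher and 2.94% lower, and 3 had an unadjusted p under 0.05. Their median difference was 0.07, from -0.49 to 0.56. One of the 18, AT1G26530, overlaps its member AT1G26540, and it read 0.8 to 8.2 over the 8 arrays.

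AT5G44730, next to POLH, had the highest difference, with 41.4, 46.0, 67.0 and 89.6 in wildtype and 104.9, 76.9, 90.8 and 108.4 in E2Fa-Dpa. The groups overlapped, and the difference was 0.56 (adjusted p = 0.136). It passed in the blocked fit (adjusted p = 0.0128). With the nearest protein-coding gene on each side in place of the next gene of any kind, 22 were measured, 0 were called higher and 1 lower. This was AT3G58550, beside AT3G58540, with 284.8, 294.8, 171.5 and 246.6 in wildtype and 73.5, 142.9, 142.3 and 87.6 in E2Fa-Dpa, a difference of -1.08 (adjusted p = 0.026). The rise of AT3G58540 was set by the rule, so only the fall of AT3G58550 was tested. The nearest protein-coding gene was not a planned choice of neighbour. Beside the kinase inhibitor AT5G40460 on either side, AT5G40450 and AT5G40470 had 0.83 and 0.41 (adjusted p = 0.156 and 0.160). Both passed in the blocked fit (adjusted p = 0.0111 and 0.0176), which called 2653 probe sets higher, against 992 without the block. Within E2Fa-Dpa, AT5G40450 was lower with control RNA, by -1.21 (adjusted p = 0.0071), where AT5G40460 was higher. AT5G40470 had 0.31 (adjusted p = 0.158).

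**Figure D4:**
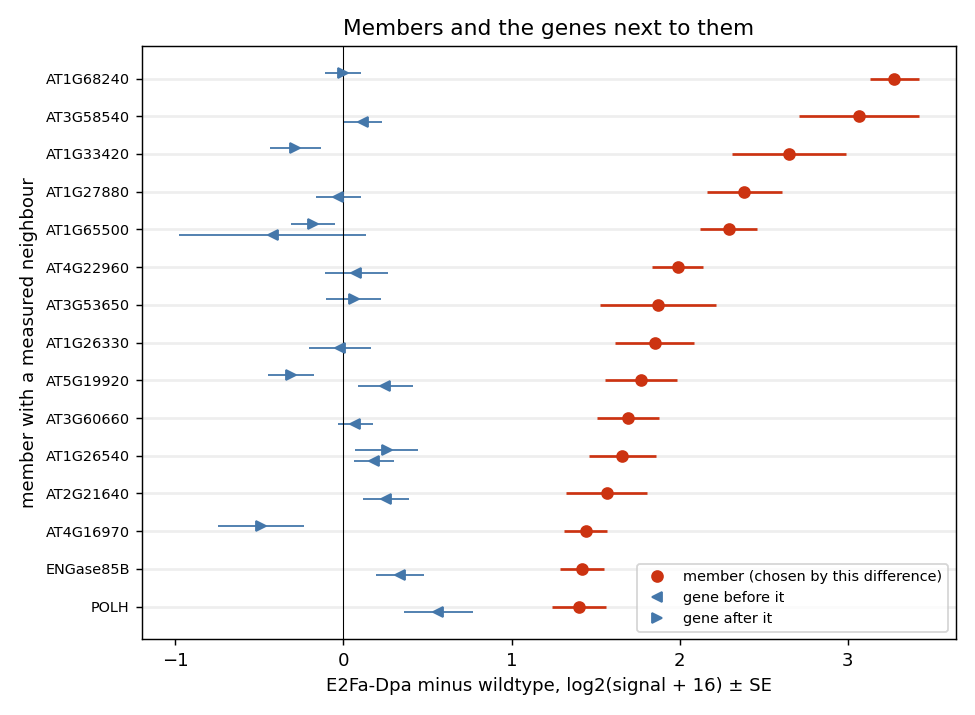
Difference between E2Fa-Dpa and wildtype in log2(signal + 16), with the SE as bars, for the 15 listed members with a measured neighbour (red circles) and for the 18 genes next to them (blue triangles, pointing left for the gene before and right for the gene after). The neighbours lie between -0.49 and 0.56. The members' values were set apart from 0 by the rule and are shown for scale.

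Lists of related genes were set beside the members. They were chosen with earlier results of these data known, so their counts are a description and no independent support. None of the measured list genes is itself a member, and whether an unlisted member covers one of the others was not checked. Of 31 genes of DNA replication 6 were measured and all 6 were called higher, against the 4.36% of all probe sets, with a median of 1.53. ICU2 and POLD3, which encode parts of the replicative DNA polymerases alpha and delta, came close to the members' limits, with 27.7 to 36.1 and 27.9 to 37.4 in wildtype against 136.2 to 187.5 and 108.9 to 146.8 in E2Fa-Dpa. They were not low enough in wildtype to be chosen. MCM7, of the replicative helicase, and POLA3, of primase, were higher too, with 2.42 and 1.51 (adjusted p = 0.000119 and 0.00218). Within E2Fa-Dpa, 1 of these 6 was called higher with control RNA, by 0.91 (adjusted p = 0.0153). It was PSF2 of the GINS complex, named after its values were seen. MCM7, POLA3 and POLD3 had 0.44, 0.53 and 0.27 and were not called. ICU2 and FEN1 had -0.29 and -0.40 (adjusted p = 0.167 and 0.0747). The median over the 6 was 0.35.

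Of 12 genes that regulate entry into S phase 1 was measured, FBL17, an F-box protein that helps remove inhibitors of cyclin-dependent kinases, and it was higher, with 2.46 (adjusted p = 0.000105). Its signals of 74.8 to 101.3 in wildtype lay above the members' limit. Within E2Fa-Dpa it was higher with control RNA by 0.50 (adjusted p = 0.0499). Of 21 genes of meiosis and recombination 6 were measured and 1 was called higher, MND1, whose protein helps recombinases pair DNA strands. It read 12.8, 16.7, 10.8 and 20.1 in wildtype and 137.9, 55.9, 70.7 and 142.0 in E2Fa-Dpa, a difference of 1.85 (adjusted p = 0.00407). Only E2Fa-Dpa replicate 2 kept it out of the set. Within E2Fa-Dpa it was higher with control RNA by 0.98 (adjusted p = 0.0171), while SDS, a cyclin of meiosis, was lower, with -0.58 (adjusted p = 0.0441). The SDS signals were very low, 0.6, 5.9, 11.9 and 0.4 in E2Fa-Dpa and 4.0 to 11.4 in wildtype, and do not show that the gene was on. The other 5, among them SPO11-1 and SDS, did not pass between the groups, and the median over the 6 was 0.04. Of 14 genes of DNA methylation and silencing the annotation names none alone for a probe set, and whether unlisted probe sets cover them was not checked.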

How the data were processed

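The authors deposited 1 linear intensity per probe set and array, made with MAS5 per the submitters' processing notes, and no version is given in the sources used here. Signals were used as log2(signal + 16) for the 22746 probe sets other than the 64 manufacturer's controls, with no filter on low signal. E2Fa-Dpa was compared with wildtype over all 8 arrays without a covariate, by lmFit and eBayes with trend of limma 3.58.1 (R 4.3.3), and a model with a mean for each group and array set gave the differences between array sets and the interaction. P-values are two-sided and were adjusted by Benjamini-Hochberg over all tested probe sets. They reflect only how far these arrays scatter, which may be technical. The number of arrays limits the precision.

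Array sets were read from the poly-A control probe sets alone, since the labels give no batch. The fits were first tested on simulated arrays with independent noise and changes planted only in probe sets of higher mean signal. These had no close pairs, so they do not show how the fits behave with close pairs or dim signals.

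Names came from the platform annotation, in which 13513 tested probe sets name 1 gene, 503 several and 8730 are not listed. All 25 listed members matched RefSeq's table of genes (TAIR10.1), used for loci and neighbours only. A gene with several probe sets was represented by the one with the highest mean. Members and lists were chosen with earlier results of these data known. By rule, all listed members, the 2 unlisted members with the highest E2Fa-Dpa median, neighbours changed at least 2-fold and up to 4 called genes a list are named; others were chosen after their values were seen. Promoters and protein sequences were not used here, so the planned searches for E2F sites and for related proteins were not run. The main fit did not pair samples by replicate number. Deviations of same-numbered arrays correlated at -0.519, 0.443, -0.359 and 0.526. The sign was positive where both arrays were of the same array set and negative where they were not. These values therefore cannot show whether the replicate numbers pair the samples.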

Additional observations from a re-analysis of the deposited data

Results flagged for a closer look

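Among 54 groups of 4 values checked, those of the named members, 4 had 1 array far from the other 3, about as chance would give at 1 in 20 groups. For POLH, E2Fa-Dpa replicate 4 was the highest with 93.7, against 60.8 to 65.3. For AT4G27510, wildtype replicate 4 was the highest with 14.6, against 8.0 to 8.1. For AT4G22960, E2Fa-Dpa replicate 3 was the highest with 124.9, against 83.8 to 90.3. For AT1G65500, E2Fa-Dpa replicate 2 was the lowest with 116.8, against 181.3 to 190.4.

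The difference between the groups differed between the array sets for 2 of 49 members by the interaction, AT1G18130 and 265837_at. Their signals also chose them as members, so this is a description. The poly-A control probe sets, which were not tested, were higher on the arrays with control RNA by 1.33 on the log2(signal + 16) scale.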

How the results depend on the processing

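The 49 members became 39 with each array centred on its median and 44 with quantile scaling (39 and 41 of them members), 11 with limits of 20 and 80, and 121 with limits of 40 and 50. With an array left out they were 49 to 74, the most without E2Fa-Dpa replicate 2, and by the arrays with control RNA alone 151, by those without alone 75, settings chosen after seeing the data. Members called higher between the E2Fa-Dpa array sets were 21 with a mean signal of at least 20 and 21 with median scaling. They were 23 with a pseudocount of 64 and 8 with a pseudocount of 1. Over all probe sets the shares called higher were 10.1%, 7.67%, 5.68% and 4.89%, in the same order. With a wildtype array left out 13 to 19 members were called, at shares of 3.93% to 9.73%. With an E2Fa-Dpa array left out the count fell, as given above. The interaction gave 4 with the filter on mean signal and 0 to 6 with an array left out. Over all probe sets the 1661 calls became 4876 when blocked on array set, 454 with close pairs as a random block, 854 with the replicate number as a block, in which no neighbour was called higher (0), and 674 to 1696 with an array left out. With median scaling 726 of 1732 calls were higher, against 992 of 1661. Neighbours called higher were 1 when blocked on array set, 1 within the arrays without control RNA and 0 to 1 with an array left out. The direction of the members' group difference is fixed by the rule. Of 91 refits of the 7 listed calls between array sets, 66 kept the call and 25 lost it, none reversed. The causes were not tested.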
